A study of Mus musculus with 6 samples.

Results

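Gm26870 (ENSMUSG00000097312.1) is a long non-coding RNA gene annotated by GENCODE vM21 on the minus strand of mouse chromosome 9, at chr9:3000282-3038313 of GRCm38, where its start is the lowest of all genes of that chromosome in the annotation. Its reads were the small RNAs of 24 to 32 nt found without mismatch on either strand of Gm26870-201, 1 of 2 annotated transcripts that tie as its longest at 1170 nt. They amounted to 9 reads in Dnmt3L KO testis and 891 in Dnmt3L WT testis at 16.5 dpc, 1 read in Dnmt3L KO and 425 in Dnmt3L WT testis at 10 dpp, and 3 reads in Miwi2 KO and 334 in Miwi2 WT testis at 10 dpp, with 308 distinct sequences in all. The gene is 1 of 55450 whose longest transcripts were searched, and it was chosen by these same levels, for their low KO over WT ratios, so they are given as a description with no test.

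The study compared small RNAs of whole testis from C57BL/6 mice lacking Dnmt3L, at 16.5 days post coitum (dpc) and 10 days post partum (dpp), or lacking Miwi2, at 10 dpp, with testis of wild-type littermates. Each of the 6 groups is 1 library, made from a pool of 7 or 8 mice at 16.5 dpc and of 3 mice at 10 dpp. No group has a second library, so no test between groups is possible. Since whole testis was used, fewer cells that make an RNA and less of that RNA per cell cannot be told apart. The libraries hold small RNAs and so give no check of the deleted genes.

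PIWI-interacting RNAs (piRNAs) are small RNAs of the germ line that guide PIWI proteins to complementary transcripts, above all those of transposons. In fetal male germ cells the mouse PIWI proteins MILI and MIWI2 act together. MIWI2 carries piRNAs into the nucleus, where they direct DNA methylation through DNMT3L, a cofactor of the de novo methyltransferases, and MIWI2 is lost soon after birth. Most piRNAs begin with U, and those made when another piRNA guides the cut of their precursor tend to carry A at position 10. The blocks of heterochromatin beside mouse centromeres consist mainly of the major satellite, a tandem repeat with a unit of 234 bp.

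The 10 sequences with the most reads over all libraries are shown because they hold 449 of all 1663 Gm26870 reads. Each is written as DNA, from 5′ to 3′, with bases 1 and 10 in capitals. Base 1 is U in most piRNAs, and base 10 tends to be A in those made by piRNA-guided cutting.
read 1: TggcgagaaAactgaaaatcacggaaaat
read 2: TatggcgagAaaactgaaaatcacgga
read 3: TatggcgagAaaactgaaaatcacgg
read 4: CggaaaatgAgaaatacacactttaggacg
read 5: AcgtgaaatAtggcgaggaaaactgaaa
read 6: TggcgagaaAactgaaaatcacggaaaa
read 7: TaggacgtgAaatatggcgaggaaaact
read 8: CggaaaatgAgaaatacacactttagga
read 9: AtggcgagaAaactgaaaatcacggaa
read 10: AcctggaatAtggcgagaaaactgaa
All 10 were in the sense direction of Gm26870 and had 26 to 30 nt. The first base was U in 5, A in 3 and C in 2 of them, and base 10 was A in all 10.

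The longest single exon of the gene, exon 1 of Gm26870-203 with 586 nt, was a tandem repeat. Shifted against itself by 234 nt, 92.9% of its positions were identical, against a median of 30.8% over shifts of 1 to 300 nt. Lower peaks stood at 176, 292 and 58 nt, with 63.7%, 61.2% and 59.8% identity. The period and the chromosome end are those known of the major satellite, but no repeat annotation was used here. One unit is shown because reads 1 and 4 overlap in it, and the capitals mark the 51 bases that these reads cover. It lies at chr9:3037735-3037968 on the minus strand of GRCm38.
unit: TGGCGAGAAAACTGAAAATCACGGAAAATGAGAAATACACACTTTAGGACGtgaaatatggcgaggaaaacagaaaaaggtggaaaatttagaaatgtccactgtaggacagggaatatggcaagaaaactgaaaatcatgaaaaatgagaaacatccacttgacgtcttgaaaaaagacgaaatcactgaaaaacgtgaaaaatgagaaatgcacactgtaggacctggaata

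**Figure D1:**
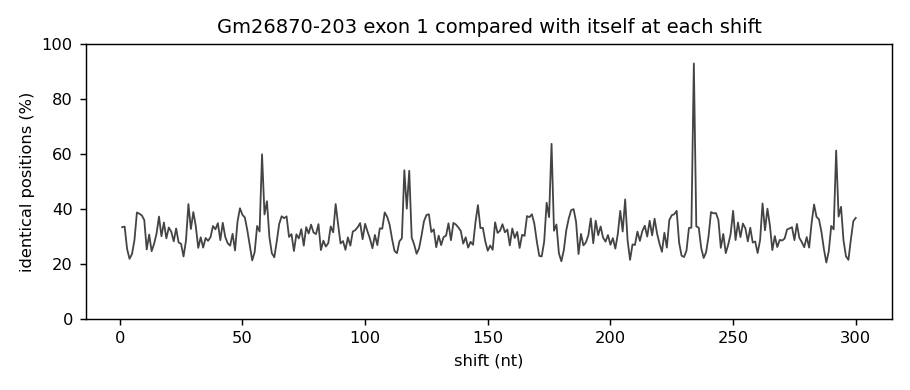
Share of identical positions (y axis, %) when exon 1 of Gm26870-203 is compared with itself at each shift (x axis, nt). The highest peak is at a shift of 234 nt, with 92.9% identity.

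At 16.5 dpc, Gm26870 reads were nearly absent from Dnmt3L KO testis. Their level was 0.191 reads per 1000000 library reads (RPM; exact Poisson 95% interval 0.0871 to 0.362) in Dnmt3L KO testis and 21.03 RPM (19.7 to 22.5) in Dnmt3L WT testis. The intervals are far apart, and the KO over WT ratio was 0.00906 (exact conditional binomial 95% interval 0.00413 to 0.0173), or -6.79 on the log2 scale. These intervals cover counting error only. As a yardstick without replicates, a transcript was called lower or higher where its log2 ratio passed 2.05 (4.15-fold), a width that held 95% of the 6465 transcripts with at least 500 reads when Miwi2 WT testis was set against Dnmt3L WT testis of 10 dpp. Gm26870 was past it, and so were 0.164% of the 6690 transcripts tested (11 transcripts called lower), whose median log2 ratio was -0.08. Marker miRNAs of testis cells also differed. The summed level of 12 germ-cell miRNA genes was 2697 RPM in Dnmt3L KO testis and 3388 RPM in Dnmt3L WT testis (0.796-fold, 10 of 12 lower, none at 0). Mir871 and Mir470 held most of these reads, with 69772 and 52087 in Dnmt3L KO and 60222 and 74272 in Dnmt3L WT testis. The sum thus mainly follows these genes and hides larger differences of others. Mir881 had 352 reads in Dnmt3L KO and 2229 in Dnmt3L WT testis, and Mir880, 1 of the 2 higher genes, had 76 and 24. Mir202, a marker of Sertoli cells, had 49.9 RPM in Dnmt3L KO testis and 29.3 RPM in Dnmt3L WT testis. The part of these markers in the Gm26870 difference was not tested.

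At 10 dpp the Dnmt3L KO library held a single Gm26870 read. The level was 0.0348 RPM (0.000882 to 0.194) in Dnmt3L KO testis and 11.2 RPM (10.1 to 12.3) in Dnmt3L WT testis. The ratio of 0.00312 (7.88e-05 to 0.0175), a log2 ratio of -8.32, rests on 1 read, and the upper end of its interval is the firmer figure. With 426 reads in both libraries together the gene is under the 500-read minimum, so no call was made. The background of this comparison was low, since 74.2% of 4825 transcripts were called lower and the median log2 ratio was -2.90. The lowest transcript among those tested was 4731419I09Rik at -4.97. With a minimum of 100 reads, where the limit is 2.35, Gm26870 was the third lowest of 7962 transcripts, 61.3% of which were called lower, and both lower ones, Gm10800 and Gm10801, share sequence with it. The summed level of the 12 germ-cell miRNA genes was also lower, at 11774 RPM in Dnmt3L KO testis and 35702 RPM in Dnmt3L WT testis (0.330-fold, all 12 genes lower, none at 0). Mir202 had 410.5 RPM in Dnmt3L KO testis and 239.8 RPM in Dnmt3L WT testis, and the part of either in the Gm26870 difference was not tested.

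In Miwi2 KO testis at 10 dpp, Gm26870 stood at 0.0806 RPM (0.0166 to 0.236), against 7.42 RPM (6.65 to 8.26) in Miwi2 WT testis. The ratio was 0.0109 (0.00223 to 0.0320), or -6.52 on the log2 scale, and with 337 reads in both libraries it was again under the minimum for a call. Here few transcripts were called lower, 0.0602% of 6639, while 4.85% were called higher. The median log2 ratio was -0.43, and the lowest transcript among those tested was the miRNA gene Mir449c at -3.80. At a minimum of 100 reads Gm26870 was the fourth lowest of 12136 transcripts, 0.239% of which were called lower. The 3 below it were Gm5948, with 0 reads in Miwi2 KO and 300 in Miwi2 WT testis, and Gm10715 and Gm10800, which share sequence with Gm26870. The germ-cell miRNA genes went the other way, with a summed level of 34063 RPM in Miwi2 KO testis and 17600 RPM in Miwi2 WT testis (1.94-fold, all 12 genes higher, none at 0). Mir202 was higher too, with 294.8 RPM in Miwi2 KO testis and 183.4 RPM in Miwi2 WT testis, and the part of these markers in the Gm26870 difference was not tested.

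**Figure D2:**
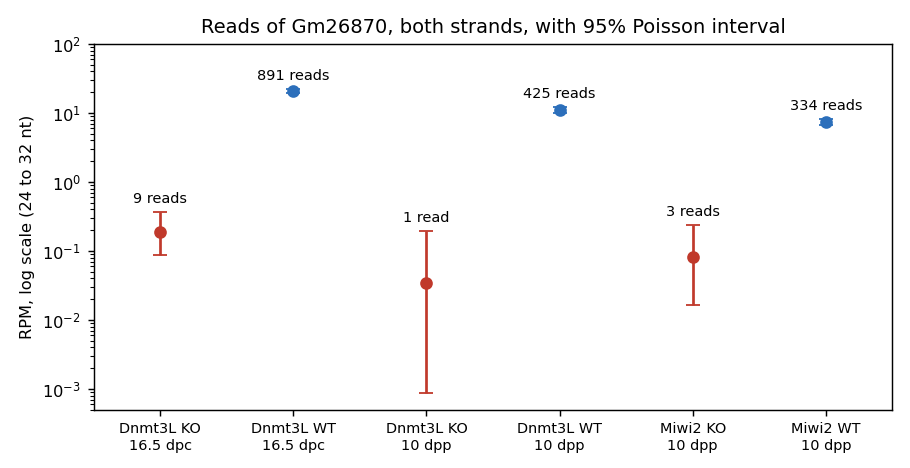
Gm26870 reads of 24 to 32 nt on both strands in each of the 6 libraries, in RPM on a log axis, with the exact Poisson 95% interval (counting error only) and the number of reads. Every KO library (red) is at or below 0.191 RPM and every WT library (blue) at or above 7.42 RPM.

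Wild-type testis also differed with age, by less than the call limit. Dnmt3L WT testis had 11.2 RPM at 10 dpp and 21.03 RPM at 16.5 dpc, a ratio of 0.531 (0.472 to 0.597) and a log2 ratio of -0.91, where 21.3% of 6445 transcripts were called lower. The direction depended on the scaling: relative to all reads of 24 to 32 nt in place of all reads, the log2 ratio was 0.19. Between both WT libraries of 10 dpp, Miwi2 WT testis had 7.42 RPM and Dnmt3L WT testis 11.2 RPM, a ratio of 0.665 (0.574 to 0.769) with a log2 ratio of -0.59. This was also within the limit, which 0.588% of 6465 transcripts passed downward, and relative to miRNA reads the log2 ratio was 0.10. The median log2 ratio of these transcripts was 0.68, so Gm26870 lay below the typical transcript here. The limit was taken from absolute ratios of this same pair, and is thus centred on 0 and not on that median. The order of the levels was thus Dnmt3L WT at 16.5 dpc, Dnmt3L WT at 10 dpp and Miwi2 WT at 10 dpp, then Dnmt3L KO at 16.5 dpc, Miwi2 KO and Dnmt3L KO at 10 dpp, and the intervals of the 3 KO libraries overlap.

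**Figure D3:**
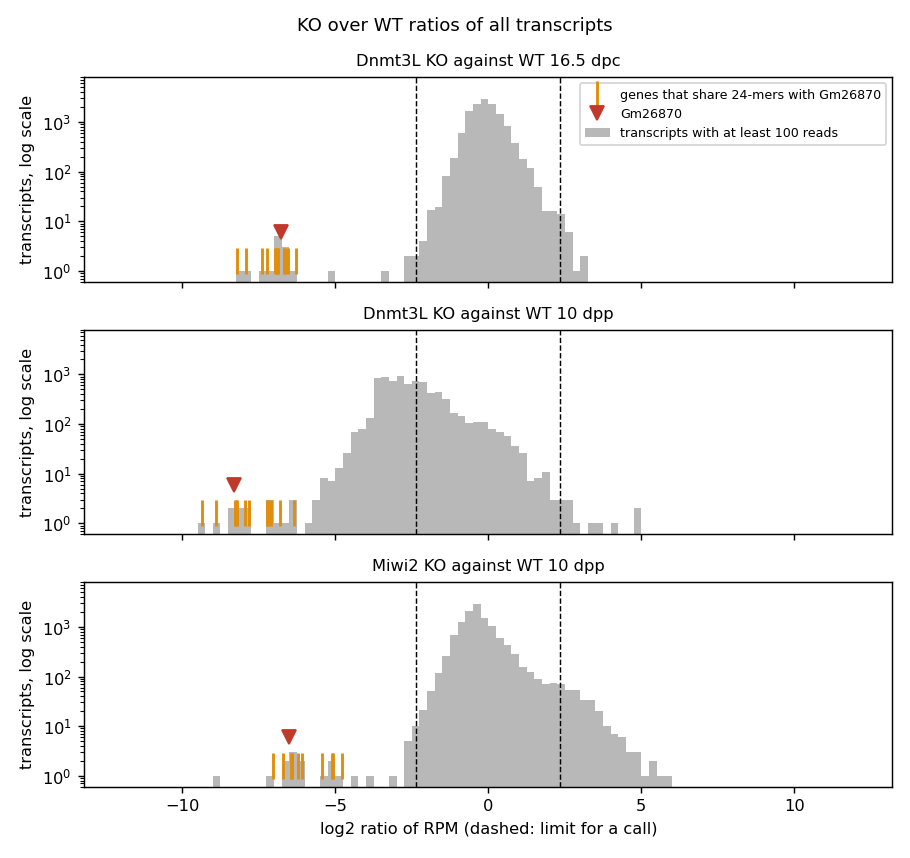
Number of transcripts with at least 100 reads (y axis, log scale) by log2 ratio of RPM (x axis) in Dnmt3L KO over WT at 16.5 dpc, Dnmt3L KO over WT at 10 dpp and Miwi2 KO over WT at 10 dpp. The triangle marks Gm26870 at -6.79, -8.32 and -6.52, the orange ticks mark the genes that share 24-mers with it, and the dashed lines are the limit for a call at this minimum, 2.35.

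The few reads of the KO libraries were sense reads of the same repeat. In Dnmt3L KO testis at 16.5 dpc, 3 of the 9 reads were read 7, which had 31 reads in the WT library of that age, and 3 were read 3, which had 0 reads in that WT library but 18 in Miwi2 WT and 28 in Dnmt3L WT testis at 10 dpp. The remaining 3 reads were 3 sequences read once each. The reads of Dnmt3L KO and Miwi2 KO testis at 10 dpp were also read once each. Counts of 1 to 3 set no pattern of their own.

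Reads in the direction of the gene made up most of the WT signal, and the antisense share was larger at 10 dpp. At 10 dpp the sense share was 90.4% (exact Clopper-Pearson 95% interval 86.7% to 93.4%) in Miwi2 WT testis, with 32 antisense reads, and 85.6% (81.9% to 88.8%) in Dnmt3L WT testis, with 61. In Dnmt3L WT testis at 16.5 dpc it was 96.6% (95.2% to 97.7%), with 30 antisense reads. No antisense read was found in any KO library, where the totals of 9, 1 and 3 reads could hardly have shown any.

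Reads of Gm26870 were shorter at 10 dpp than at 16.5 dpc. The median was 27 nt in both WT libraries of 10 dpp and 29 nt in Dnmt3L WT testis at 16.5 dpc, while over all reads of 24 to 32 nt it was 27 nt in Miwi2 WT and 25 nt in Dnmt3L WT testis of 10 dpp and 27 nt in Dnmt3L WT testis of 16.5 dpc. Reads of 28 nt or longer were 37.4% of Gm26870 reads in Miwi2 WT and 23.3% in Dnmt3L WT testis at 10 dpp, against 79.6% in Dnmt3L WT testis at 16.5 dpc. Reads of 25 to 27 nt showed the reverse, with 58.1% in Miwi2 WT and 69.4% in Dnmt3L WT testis at 10 dpp, against 18.97% in Dnmt3L WT testis at 16.5 dpc. The Dnmt3L libraries of 10 dpp list reads of up to 100 nt and the other libraries reads of up to 50 nt, and the part of that difference in the lengths was not tested.

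**Figure D4:**
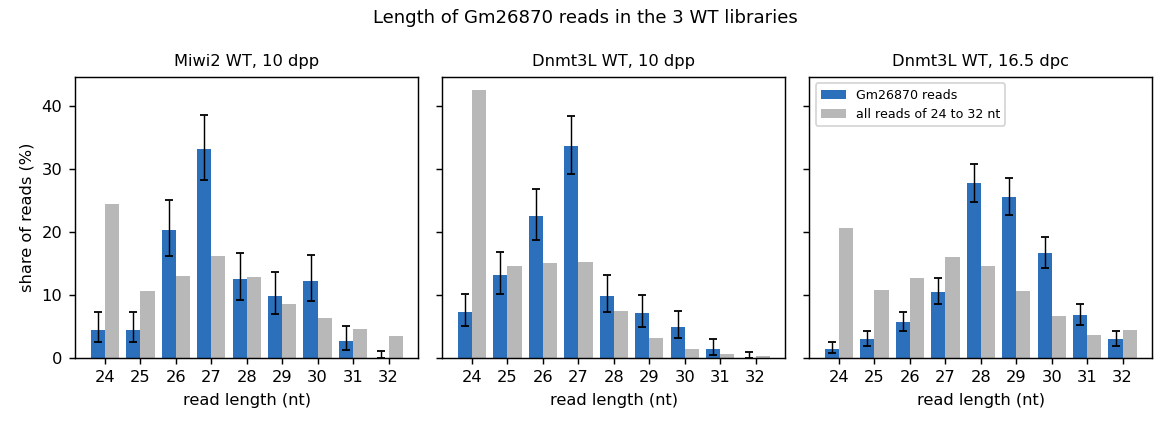
Share of reads (y axis, %) by read length (x axis, nt) for Gm26870 (blue, with exact Clopper-Pearson 95% intervals) and for all reads of 24 to 32 nt (grey) in the 3 WT libraries. The most frequent Gm26870 length is 27 nt at 10 dpp, with 33.2% of reads in Miwi2 WT and 33.6% in Dnmt3L WT testis, and 28 nt at 16.5 dpc, with 27.7%.

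The sequences themselves differed with age too. Reads that share their first 20 bases were joined into a family, which gave 130 families, and the 5 largest held 37.9% of all reads. The family of reads 1 and 6 had 20 reads (5.99% of the Gm26870 reads) in Miwi2 WT and 29 (6.82%) in Dnmt3L WT testis at 10 dpp, against 145 (16.3%) in Dnmt3L WT testis at 16.5 dpc. The family of reads 2 and 3, whose 5′ end lies 2 bases upstream, was the larger one after birth, with 54 reads (16.2%) in Miwi2 WT and 72 (16.9%) in Dnmt3L WT testis at 10 dpp, against 28 (3.14%) in Dnmt3L WT testis at 16.5 dpc. Its median length was 27 nt in Miwi2 WT and 26 nt in Dnmt3L WT testis at 10 dpp, and 31 nt in Dnmt3L WT testis at 16.5 dpc.

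Some single sequences showed the same split. Read 1 was counted 8 times in Miwi2 WT and 2 times in Dnmt3L WT testis at 10 dpp, and 58 times in Dnmt3L WT testis at 16.5 dpc. Read 2 was counted 30 times in Miwi2 WT and 27 times in Dnmt3L WT testis at 10 dpp, and 6 times in Dnmt3L WT testis at 16.5 dpc. Read 4 followed read 1, with a count of 8 in Miwi2 WT and 2 in Dnmt3L WT testis at 10 dpp, and 37 in Dnmt3L WT testis at 16.5 dpc. Shorter sequences with the same 5′ ends did not all follow them. A 27-nt sequence with the 5′ end of read 1 had 1 read in Miwi2 WT testis. In Dnmt3L WT testis it had 13 at 10 dpp and 4 at 16.5 dpc. A 27-nt sequence with the 5′ end of read 4 had 1, 13 and 6 reads in the same libraries. No sequence dominated any WT library, since the most frequent one held 8.98% of the reads in Miwi2 WT and 6.59% in Dnmt3L WT testis at 10 dpp, and 6.51% in Dnmt3L WT testis at 16.5 dpc. Of the 127 sequences in Dnmt3L WT testis at 10 dpp and the 187 at 16.5 dpc, 42 were shared, which is 33.1% of those at 10 dpp and 22.5% of those at 16.5 dpc. Miwi2 WT testis, with 89 sequences, shared 44 with Dnmt3L WT testis of 10 dpp, or 49.4% of its own and 34.6% of the other's. It shared 36 with Dnmt3L WT testis of 16.5 dpc, or 40.4% of its own and 19.3% of the other's.

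**Figure D5:**
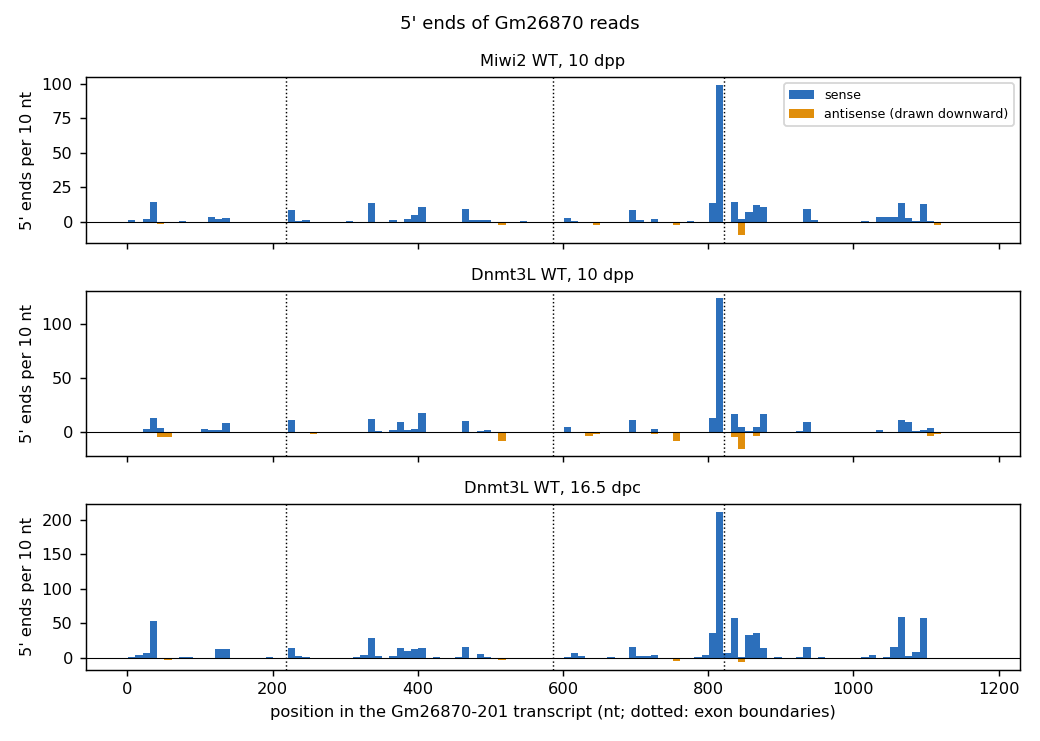
Number of read 5′ ends per 10 nt (y axis; sense upward in blue, antisense downward in orange) along the Gm26870-201 transcript (x axis, nt) in the 3 WT libraries, with a read of several positions divided evenly over them. In each library the highest bar is the one from 811 to 820 nt, with 99.5 sense 5′ ends in Miwi2 WT and 124 in Dnmt3L WT testis at 10 dpp, and 212 in Dnmt3L WT testis at 16.5 dpc.

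Along the 1170 nt of Gm26870-201, reads covered 798 bases (68.2%) in Miwi2 WT and 793 (67.8%) in Dnmt3L WT testis at 10 dpp, and 899 (76.8%) in Dnmt3L WT testis at 16.5 dpc. The most used starting point was the end of exon 3. As a result, 108 of the 334 reads in Miwi2 WT testis (32.3%) and 142 of 425 in Dnmt3L WT testis (33.4%) at 10 dpp matched Gm26870-201 only across the junction of exons 3 and 4, as did 212 of 891 (23.8%) in Dnmt3L WT testis at 16.5 dpc. Every one of these reads also lay inside a single exon of 1 of the 3 annotated transcripts, so no read in any library was specific to a spliced form.

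The bases of the reads departed from those of other small RNAs of their size at position 10. A at position 10 was found in 79.0% of Gm26870 reads in Miwi2 WT and 75.1% in Dnmt3L WT testis at 10 dpp, and in 73.7% (70.7% to 76.6%) in Dnmt3L WT testis at 16.5 dpc. Over all reads of 24 to 32 nt it was found in 26.7% of reads in Miwi2 WT and 23.4% in Dnmt3L WT testis at 10 dpp, and in 29.98% in Dnmt3L WT testis at 16.5 dpc. Position 10 had the highest share of A among the first 24 read positions in each of these 3 libraries. The gene is itself rich in A, which makes up 45.8% of the transcript, and position 18 came second, with 69.5% in Miwi2 WT and 71.3% in Dnmt3L WT testis at 10 dpp, and 61.2% in Dnmt3L WT testis at 16.5 dpc.

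U as first base was less frequent than over all reads of the size class. It was found in 52.1% of Gm26870 reads in Miwi2 WT and 55.5% in Dnmt3L WT testis at 10 dpp, and in 51.4% (48.1% to 54.7%) in Dnmt3L WT testis at 16.5 dpc. Over all reads of 24 to 32 nt it was found in 67.2% in Miwi2 WT and 77.7% in Dnmt3L WT testis at 10 dpp, and in 70.3% in Dnmt3L WT testis at 16.5 dpc. The transcript holds 18.0% U, and position 1 had the highest share of U among the first 24 positions in the 3 libraries.

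Among the few antisense reads, U at position 1 was more frequent and A at position 10 less frequent than among the sense reads. U was the first base in 71.9% (53.3% to 86.3%) of 32 antisense reads in Miwi2 WT and 72.1% (59.2% to 82.9%) of 61 in Dnmt3L WT testis at 10 dpp. It was the first base in 86.7% (69.3% to 96.2%) of 30 in Dnmt3L WT testis at 16.5 dpc. A stood at position 10 in 59.4% (40.6% to 76.3%) of them in Miwi2 WT and 39.3% (27.1% to 52.7%) in Dnmt3L WT testis at 10 dpp, and in 33.3% (17.3% to 52.8%) in Dnmt3L WT testis at 16.5 dpc. These intervals overlap those of all Gm26870 reads for U in both WT libraries of 10 dpp and for A in Miwi2 WT testis. A 10-nt overlap of 5′ ends on opposite strands is the known mark of paired piRNA cutting. Among overlaps of 1 to 20 nt, where an even spread would give 5.0% each, it held 20.8% of weighted read pairs in Miwi2 WT testis, the largest share there. It held 5.60% in Dnmt3L WT testis at 10 dpp, where 6 nt was the largest with 13.0%, and 3.42% in Dnmt3L WT testis at 16.5 dpc, where 7 nt was the largest with 26.6%. With 30 to 61 antisense reads and a repeated sequence, in which a read can match several places, these shares describe the libraries and no more.

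Almost no read can be assigned to Gm26870 alone. In Miwi2 WT testis 97.6% and in Dnmt3L WT testis 99.5% of its reads at 10 dpp were also found in the longest transcript of another gene, as were 99.2% in Dnmt3L WT testis at 16.5 dpc. Of the 308 sequences, 8 were found in no other gene, and the median sequence was found in 8 genes and the most shared ones in 13. Read 1 was found in 8 other genes, read 2 in 7 and read 10 in 10, each time in the opposite direction. The origin of the reads among these copies, and copies outside annotated genes, cannot be told apart.

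The genes that share at least 10 distinct 24-mers with Gm26870 were 12 in number, all annotated as protein-coding, with 122 to 355 shared 24-mers each, and all of these lie in the opposite direction. Of these, 9 are on chromosome 9 and overlap Gm26870 on the plus strand (Gm10722, Gm11168, Gm10721, Gm10720, Gm10719, Gm10718, Gm10717, Gm17535 and Gm10715). Gm10800 and Gm10801 are on chromosome 2 and Gm21738 is on chromosome 14. Since they share reads with Gm26870, their levels are no independent measurement. Gm10800, with the most reads, had 10 reads in Dnmt3L KO and 1512 in Dnmt3L WT testis at 16.5 dpc, 0 in Dnmt3L KO and 432 in Dnmt3L WT testis at 10 dpp, and 3 in Miwi2 KO and 380 in Miwi2 WT testis. Gm10719 had 9 and 827 reads in Dnmt3L KO and Dnmt3L WT testis at 16.5 dpc, 1 and 400 in Dnmt3L KO and Dnmt3L WT testis at 10 dpp, and 3 and 309 in Miwi2 KO and Miwi2 WT testis. At a minimum of 100 reads all 12 were called lower in both Dnmt3L comparisons, and all 11 that reached the minimum in the Miwi2 comparison. Over all transcripts at this minimum, 0.13% of 13115 were called lower for Dnmt3L at 16.5 dpc, 61.3% of 7962 for Dnmt3L at 10 dpp and 0.239% of 12136 for Miwi2, so the count for Dnmt3L at 10 dpp stands against a background in which most transcripts were called.

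These 12 genes also hold reads that are absent from Gm26870. Since the genes were picked for sharing its repeated sequence, these other reads are no independent measurement either. They numbered 2 in Dnmt3L KO and 722 in Dnmt3L WT testis at 16.5 dpc, a ratio of 0.00248 (0.000300 to 0.00901). At 10 dpp they numbered 0 in Dnmt3L KO and 49 in Dnmt3L WT testis, a ratio of 0 (0 to 0.104). The median log2 ratio of that comparison, over transcripts with at least 500 reads, was -2.90. They numbered 5 in Miwi2 KO and 79 in Miwi2 WT testis, a ratio of 0.0765 (0.0242 to 0.186). Their levels were low in every KO library, as those of Gm26870 were. With age they differed more than Gm26870 itself, with 1.29 RPM in Dnmt3L WT testis at 10 dpp and 17.0 RPM at 16.5 dpc, a ratio of 0.0755 (0.0554 to 0.101).

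The summed level of all highly repeated reads, those found in at least 10 genes of any kind, did not follow Gm26870 at 16.5 dpc or in Miwi2 KO testis. It came to 29326 RPM in Dnmt3L KO and 29800 RPM in Dnmt3L WT testis at 16.5 dpc. It came to 4342 RPM in Dnmt3L KO and 18796 RPM in Dnmt3L WT testis at 10 dpp, and to 41561 RPM in Miwi2 KO and 25336 RPM in Miwi2 WT testis. At 16.5 dpc and the minimum of 500 reads, the only transcript called lower that shares no 24-mers with Gm26870 was Gm25687, with 5.48 RPM in Dnmt3L KO and 26.7 RPM in Dnmt3L WT testis. It was the transcript just inside the limit, at -2.28, and Gm12896 and Gm12895, both at -2.05, and Gm2824 at -2.02 were just outside it. At the minimum of 100 reads, with its limit of 2.35, Gm25687 was not called, and 4 other transcripts without shared 24-mers were: mt-Tr at -5.23, mt-Th at -3.25, Gm22981 at -2.69 and mt-Tg at -2.52.

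Genes next to Gm26870 that lack its sequence had few or no reads. Of 12 genes within 100 kb, 9 are the overlapping ones named above. Of the remaining 3, the miRNA gene Mir101c had no read of this length in any library, and shorter reads were not counted for it. 4930433N12Rik had 10 reads in Dnmt3L KO and 5 in Dnmt3L WT testis at 16.5 dpc and at most 1 in each library of 10 dpp, and Gm32390 had 1 read in all.

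The 5 transcripts whose levels over the 6 libraries were most like those of Gm26870 were Gm10721, Gm10719, Gm10717, Gm21738 and Gm10718, with Pearson correlations of log2(RPM + 0.1) of at least 0.999 among 9422 transcripts compared. All 5 share reads with Gm26870. The closest transcript that shares none, Wsb2-ps, named after its values were seen, had a correlation of 0.886. Its levels were 2.01 RPM in Dnmt3L KO and 2.69 RPM in Dnmt3L WT testis at 16.5 dpc, a much smaller difference than that of Gm26870.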

How the data were processed

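Small RNA was sequenced from whole testis in 6 pooled libraries, from Trizol RNA size-selected to 18 to 35 nt with the Illumina small RNA TruSeq kit, per the labels. The deposited files list each read sequence with its raw count, whole numbers as the authors deposited them. The submitters' processing notes name mm9 as build; how reads were trimmed is not given in the sources used here. Coordinates are those of GENCODE vM21 on GRCm38, not mm9, and no genome sequence was used.

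Libraries held 28701563 to 47232494 reads, of which 35.7% to 56.1% of those of 24 to 32 nt matched a transcript. A floor of 3 counts is 0.0635 to 0.105 RPM. Reads of 24 to 32 nt were matched exactly, in either direction, to 55450 genes, each represented by its longest transcript (Python 3.11.15, numba 0.67.0), counted in full for every gene that holds them, and scaled to 1000000 library reads. A count of 0.5 was added where a library had no read in a gene, for log2 ratios only. Of the miRNA genes listed to check the tissue, the 12 of germ cells and Mir202 of Sertoli cells were present in all libraries, at levels that differed between KO and WT as given above; Mir1a of muscle had 1 read in all and Mir451a of red blood cells 420 to 802. Calls were made, by the limit given above, over transcripts with at least 500 reads in both compared libraries added together. No test was made, since each group has 1 library. Named genes were Gm26870, the genes that hold its main sequences or share at least 10 24-mers, neighbours within 100 kb, the 5 most alike in level, and those next to the limit. The gene and the lists were chosen with earlier results of these data known. Alternatives were miRNA and TMM (edgeR 4.0.16) scaling, sense reads, reads divided over genes, up to 1 mismatch, distinct sequences, other length ranges and other minimums; scaling to reads of 24 to 32 nt, reads of 18 to 35 nt, and the other 2 transcripts were added after seeing the data. The matching and the calls were checked on simulated data. Without molecular identifiers, PCR copies count as reads, so intervals describe counting error only.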

Additional observations from a re-analysis of the deposited data

How the results depend on the processing

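In the 3 KO comparisons the Gm26870 log2 ratio stayed below 0 under every alternative that recomputed it. It was -7.20 to -5.61 for Dnmt3L at 16.5 dpc, -8.93 to -5.56 for Dnmt3L at 10 dpp and -7.13 to -4.52 for Miwi2. Of the 14 alternatives each, those with another minimum for the limit change only the call and leave the ratio as it was. Counting each distinct sequence once, relative to all distinct sequences of the library, gave -5.61, -5.75 and -4.52, and the cause of this shift was not tested. TMM scaling gave -5.56 for Dnmt3L at 10 dpp, where it moved the median of all transcripts by 2.76, and it moved that median by 0.40 for Miwi2. With the limit set over transcripts with at least 100 reads (2.35) or 1 read (3.41), the gene passed the minimum and was called lower at 10 dpp, at -8.32 for Dnmt3L and -6.52 for Miwi2.

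The WT comparisons depended on the setting. Dnmt3L WT at 10 dpp over 16.5 dpc gave -2.03 scaled to miRNA reads, -1.10 with TMM, -1.09 for sense reads, -1.57 with up to 1 mismatch, -0.43 for reads of 18 to 35 nt and -0.74 on Gm26870-202, and it was above 0 for distinct sequences (0.56) and relative to reads of 24 to 32 nt (0.19). Miwi2 WT over Dnmt3L WT gave 0.10 scaled to miRNA reads, -1.19 with TMM, -0.30 with up to 1 mismatch, -1.37 for distinct sequences, -1.10 relative to reads of 24 to 32 nt and -0.81 for reads of 18 to 35 nt. The miRNA scaling moved the median of all transcripts by -1.12 in the first and 0.69 in the second of these, and TMM moved it by -0.19 and -0.61, which are the moves of Gm26870 itself. The cause of the shifts with read choice was not tested. No paired analysis was possible because each group is 1 pool with no replicate number. Depth limits the KO levels, which rest on 1 to 9 reads.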

Other observations

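Reads of 20 to 23 nt, shorter than piRNAs, also matched Gm26870. There was 1 in Dnmt3L KO and 38 in Dnmt3L WT testis at 16.5 dpc, 0 in Dnmt3L KO and 221 in Dnmt3L WT testis at 10 dpp, and 1 in Miwi2 KO and 103 in Miwi2 WT testis at 10 dpp. They were thus more numerous in both WT libraries of 10 dpp than in the fetal one. Their first base was U in 63.1% (exact Clopper-Pearson 95% interval 53.0% to 72.4%) of reads in Miwi2 WT and 62.0% (55.2% to 68.4%) in Dnmt3L WT testis at 10 dpp, and in 92.1% (78.6% to 98.3%) in Dnmt3L WT testis at 16.5 dpc. Antisense reads were 10.7% of them in Miwi2 WT and 2.71% in Dnmt3L WT testis at 10 dpp, and 23.7% in Dnmt3L WT testis at 16.5 dpc.

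Allowing 1 mismatch took in more reads, except in Dnmt3L KO testis at 10 dpp, and the origin of the added reads was not traced. Reads numbered 23 in Dnmt3L KO and 1962 in Dnmt3L WT testis at 16.5 dpc, 1 in Dnmt3L KO and 595 in Dnmt3L WT testis at 10 dpp, and 9 in Miwi2 KO and 572 in Miwi2 WT testis. Reads of 33 to 35 nt were found in the fetal Dnmt3L WT library alone, where 30 matched the gene.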
